A study of Rattus norvegicus with 72 samples.

Results

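Fibroblasts grown out of rat medial collateral ligament were set against severed ligament taken 14 days after the operation, with 5 columns of intensities in each group. These 10 samples, of 72 in the series, were taken by their labels, and all carried the dye Cy5. Both groups came from adult male Sprague-Dawley rats. In the healing group the medial collateral ligament, a band at the inner side of the knee, had been cut under isoflurane anaesthesia with buprenorphine as analgesic, and the labels' protocols give 5 animals for the group. The cells had been released with collagenase from 8 ligaments and were grown in medium with serum, and they are labelled as passages 3 to 7. The file's fibroblast columns carry no passage in their names, and no column was tied to one. Serial passages of the same cells are not independent cultures. Every p-value below therefore measures only the spread between these columns. A further 5 Cy5 columns of ligament from untouched rats (unmanipulated ligament) entered the same fit and served as the side on which shared features were read.

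Ligament fibroblasts make the collagen fibrils of the tissue and the small proteoglycans that space them. After a cut, cells of the gap divide, deposit a provisional matrix rich in fibrillar collagen and glycoproteins, and are joined by new vessels and by macrophages. Fibroblasts moved to plastic with serum enter the cell cycle, spread on a stiff surface and build actin stress fibres, and they leave behind the vessels, blood, nerve, fat and muscle that a piece of tissue holds.

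Levels are quantile-normalised intensities on the log2 scale, with a floor at an intensity of 50 (log2 5.64), and values close to 15.99 lie at the limit of the scanner. Differences are fibroblasts minus day 14 severed ligament with the standard error (SE) of limma's fit, and each p was adjusted by Benjamini-Hochberg across the 15508 genes tested, with 0.05 as the threshold. Where all columns of a group lay at the floor or at the scanner's limit, a fold is a lower bound and is given as "at least". The fibroblast columns were brighter: their median intensities were 66 to 124, against 16 to 48 for day 14 and 17 to 83 for unmanipulated ligament. Outside the misread windows described below, between 53.5% and 66.5% of their gene spots exceeded the 95th percentile of the negative controls. On day 14 the share was 25.6% to 32.1%. Each day 14 column had spot flags identical to those of a sham column in the other dye, from which a shared array was inferred. The fibroblast and unmanipulated columns had flags identical to no other column, and were taken to have an array each. On that reading, array kind and group cannot be told apart for day 14.

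A column from each group stood apart. Fibroblast column 1 and day 14 column 1 each fell under a correlation of 0.6 with the median of their own group in 20 of 45 windows of 1000 spots, together 45.06% of the spots, and the other 8 columns did so in at most 1 window. These windows are called misread, and all of them lay in the first part of the array. Results were therefore repeated without day 14 column 1 and with both columns left out. For genes that lie in the misread windows, the values of these columns are given but should not be read as the gene's level.

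**Figure D1:**
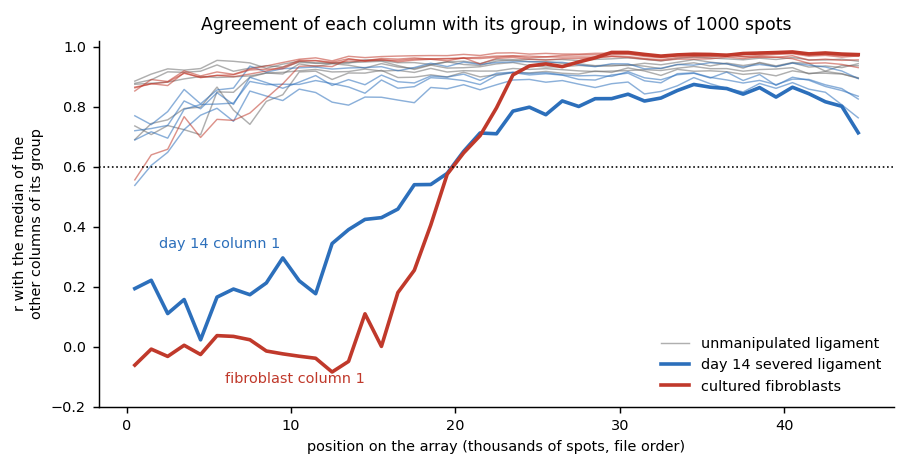
Pearson correlation of each of the 15 columns with the median of the other columns of its group (vertical axis), in windows of 1000 spots in the order of the file (horizontal axis, spot number divided by 1000), with the limit of 0.6 dotted. Thick lines mark fibroblast column 1 and day 14 column 1, which lie under the limit in 20 windows each and climb past it after that.

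Culture and healing ligament differed over much of the array. Of 15508 genes, 4182 (27.0%) were higher and 3054 (19.7%) lower in fibroblasts. Of the 15508, 7965 were named genes, and each probe without a gene name counted as a gene of its own. All 5 fibroblast columns lay above all 5 day 14 columns for 2479 genes (16.0%) and below them for 2324 (15.0%). The median difference over all genes was 0.35 on the log2 scale. Without day 14 column 1 the counts were 4147 (26.7%) and 3434 (22.1%) of 15551 genes, and with both columns left out they were 4979 (33.5%) and 3503 (23.6%) of 14867. Columns scaled to their median gave 4639 higher (29.8%) and 2154 lower (13.8%), and moved the median difference over all genes to 0.59. Day 14 itself differed from unmanipulated ligament in fewer genes, 1331 (8.58%) higher and 1274 (8.22%) lower, and fibroblasts differed from it in 3070 (19.8%) higher and 2766 (17.8%) lower. Counts for gene lists below are to be read beside the shares over all genes, 27.0% higher and 19.7% lower. These shares include the unnamed probes, whereas all list members carry names. Of 512 members of 35 gene lists, 37 had no probe named for them and 379 passed the filter on dim probes and were tested. Among those 379, 2 exceeded the filter's intensity of 100 in fibroblast columns only and 1 in day 14 columns only, so these 3 could pass only by differing. The filter asks for 5 of the 15 columns, so further members passed only with the help of their higher group. Grem1 and Cdkn2a are examples, with fewer than 5 tissue columns over 100, and members of this kind were not counted. A rule on size and list position chose 180 tested genes, and of the 175 named here 122 were called and 23 were close, with an interval of the difference within -1 to 1. Of the other 30, 17 were called when both columns were left out. For 13 of the 122, leaving out a single column of the 15 ended the call, and these columns are given beside each gene.

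**Figure D2:**
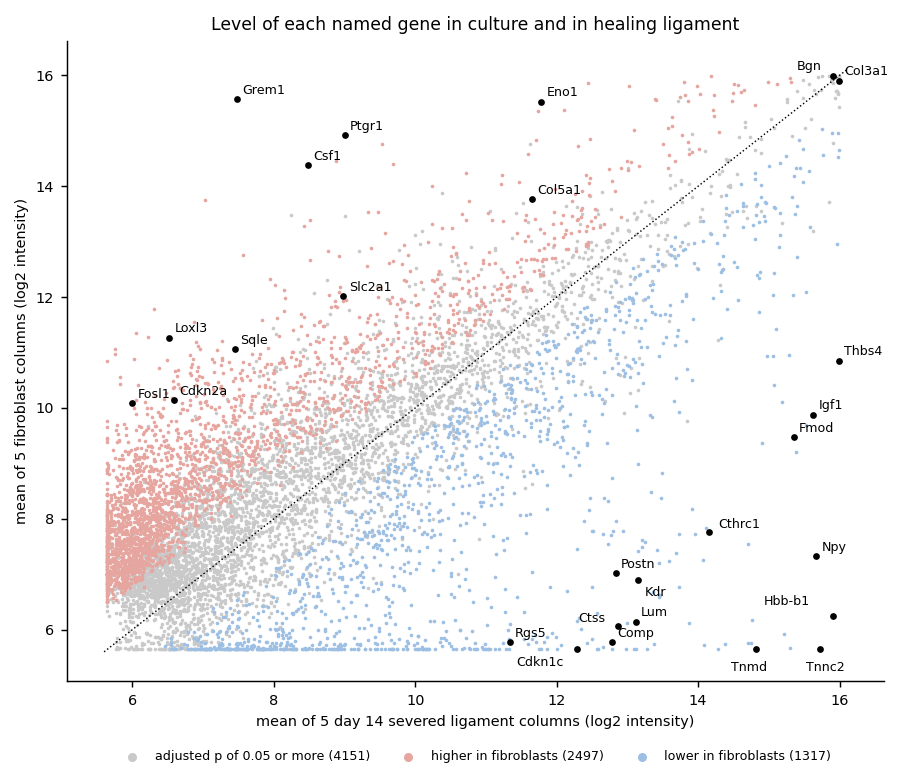
Mean level of each named gene over the 5 day 14 columns (horizontal axis, log2 intensity) and over the 5 fibroblast columns (vertical axis, log2 intensity), coloured by the call, with equality dotted. Grem1, Csf1 and Ptgr1 stand at the upper left, and Tnmd, Tnnc2, Hbb-b1 and Npy at the lower right, on or near the floor in culture.

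Secreted regulators and a metabolic enzyme were among the genes that were far higher in culture. Grem1, a secreted antagonist of bone morphogenetic proteins, stood at 15.84, 15.39, 15.46, 15.58 and 15.60 in the fibroblast columns and at 7.34, 8.55, 7.79, 7.99 and 5.70 on day 14. It was 274-fold higher (8.10 ± 0.41, SE, adjusted p = 1.89e-09), no column overlapped, and in unmanipulated ligament 4 of 5 columns lay at the floor. Grem1 passed the filter on dim probes only through its fibroblast columns. Csf1, the growth factor of macrophages, lay between 14.27 and 14.54 in fibroblasts and between 6.44 and 9.65 on day 14 (5.89 ± 0.55, adjusted p = 8.85e-07). Ptgr1, a prostaglandin reductase, lay between 14.78 and 14.97 against 7.69 to 9.73 (5.91 ± 0.32, adjusted p = 3.42e-09).

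Other large rises were seen in genes of diverse roles. Cyp1b1, a cytochrome P450 enzyme, was higher by 5.49 ± 0.39, Igf2bp2, an RNA-binding protein, by 5.31 ± 0.37, and Arsi, an arylsulfatase, by 5.31 ± 0.33. Hspb1, a small heat shock protein, was higher by 5.58 ± 0.76, and Avpr1a, a vasopressin receptor, by 5.23 ± 0.56. Ftl1l4, named as a ferritin light chain-like gene, was higher by 5.23 ± 0.28. Krt7, a keratin of simple epithelia, was higher by 5.06 ± 0.47, and Esm1, a secreted proteoglycan known from endothelium, by 4.88 ± 0.84. A lack of overlap between the groups was part of the rule that chose these 8 genes, Grem1, Csf1 and Ptgr1 above, and the largest falls below. Krt7 is known from epithelium and Esm1 from endothelium, and in the same columns the endothelial gene Kdr was low.

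Most of the genes that were far lower in culture belong to tissues that surround or feed a ligament. Tnnc2, the calcium-binding troponin of fast muscle, lay at the floor or within 0.02 of it in all 5 fibroblast columns and at 15.94, 15.96, 15.96, 14.79 and 15.98 on day 14. The difference of -10.08 ± 0.26 (adjusted p = 3.11e-12) was the largest fall among named genes, and 3 of the day 14 columns were saturated. Hbb-b1, a beta globin, lay at the floor in 4 fibroblast columns and at 8.66 in column 1, against 15.72 to 15.98 on day 14 (-9.66 ± 0.49). It lies in the misread windows, and with both columns left out the difference was -10.33. Hbb, a further beta globin entry, differed by -9.64 ± 0.39. Further muscle genes among the largest falls were Myl11 (-9.28 ± 0.48), Trdn (-8.59 ± 0.38), Myh1 (-8.64 ± 0.51), Ckmt2 (-8.64 ± 0.51), Ampd1 (-8.99 ± 0.45) and Synpo2l (-8.37 ± 0.49), which encode a myosin light chain, triadin, a fast myosin heavy chain, mitochondrial creatine kinase, a muscle deaminase and a sarcomere protein. Npy, a neuropeptide known from sympathetic nerve, stood between 6.94 and 7.56 in fibroblasts and between 15.51 and 15.98 on day 14 (-8.34 ± 0.19), with no overlap. Which cells gave the Npy signal was not tested. Car2, a carbonic anhydrase, was lower by -8.96 ± 0.28.

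In bulk RNA, fewer cells of a type and less RNA per cell cannot be told apart, which touches each tissue list that follows. Of 14 skeletal muscle genes tested, 13 were lower in culture and 0 higher (median -4.72, against 0.35 over all genes). Per column, the mean level of the list ranged from 9.45 to 13.94 on day 14 and from 6.33 to 6.66 in fibroblasts. In unmanipulated ligament it ranged from 11.77 to 14.33, so both kinds of tissue carried muscle transcripts at high levels. Ckm, muscle creatine kinase, differed by -6.67 ± 0.85. Acta1, the actin of skeletal muscle, gave no call (-1.20 ± 1.25, adjusted p = 0.455). Of 6 red cell genes 5 were lower and 0 higher (median -6.02), among them Alas2, the erythroid enzyme of heme synthesis (-6.87 ± 1.11), and Ahsp, the chaperone of alpha globin (-4.83 ± 0.91). Both genes lie in misread windows, and with both columns left out all 6 were lower. The sixth is Slc4a1, the anion exchanger of the red cell membrane, at -2.66 ± 1.14 (adjusted p = 0.0693), and at -4.75 (adjusted p = 1.93e-07) with both columns left out. Of 5 fat cell genes 4 were lower and 0 higher (median -3.27). Cfd (adipsin), Adipoq (adiponectin) and Fabp4, a fatty acid carrier, lay at the floor in every fibroblast column and were at least 98.9-fold, 9.65-fold and 12.5-fold lower.

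Vessel genes were likewise low. Of 6 endothelial markers tested, 5 were lower in culture and 0 higher (median -2.67), and with both columns left out 6 were lower. Kdr, a receptor for vascular endothelial growth factor, read 7.00, 6.53, 6.77, 7.45 and 6.75 in fibroblasts, 13.56, 12.98, 13.38, 12.95 and 12.85 on day 14 and 10.93 to 11.52 in unmanipulated ligament. Each group was apart from the other two, with the healing ligament highest and culture lowest. Fibroblasts were 75.8-fold below day 14 (-6.24 ± 0.23, adjusted p = 6.66e-11). Vwf, which encodes von Willebrand factor, lay at the floor in all fibroblast columns and was at least 18.3-fold lower. Of 7 pericyte markers 5 were lower and 1 higher (median -2.26). Rgs5, a regulator of G protein signalling in pericytes, lay at the floor in 4 fibroblast columns, and day 14 ranged from 10.93 to 11.57 (-5.56 ± 0.23). Higd1b differed by -5.94 ± 0.20 and Mcam, an adhesion molecule of vessel walls, by -2.26 ± 0.26. Cspg4, which encodes the proteoglycan NG2, was the member that was higher by 1.25 ± 0.28. Notch3, a receptor of mural cells, was close (0.30, 95% interval -0.13 to 0.73), but not with columns scaled to their median (0.79).

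Of 14 macrophage markers tested, 10 were lower and 0 higher (median -2.91), and the mean of the list ranged from 7.96 to 8.26 in fibroblasts, 9.61 to 11.29 on day 14 and 10.25 to 11.92 in unmanipulated ligament. Mrc1, the mannose receptor, lay at the floor in every fibroblast column and was at least 4.38-fold lower. Lyz2, a lysozyme of myeloid cells, read from the floor to 7.90 in fibroblasts and from 9.08 to 15.06 on day 14, without overlap (-6.24 ± 2.00, adjusted p = 0.0196). Its lowest value in each group came from the column with misread windows, and its unmanipulated columns were split between the floor and over 15. Cd68, a lysosomal protein, gave no call (-0.88 ± 1.19, adjusted p = 0.572), but -1.70 and an adjusted p of 0.00033 with both columns left out. Csf1r, the receptor of Csf1, gave -1.26 ± 0.56 (adjusted p = 0.0786), and -1.85 with an adjusted p of 0.00273 without day 14 column 4. Of 5 MHC class II genes 2 were lower and 0 higher: Cd74, the invariant chain (-4.72 ± 0.93), and RT1-Db1 (-4.85 ± 0.35). With both columns left out, 3 were lower and 1 higher. RT1-Da, an alpha chain, lay at the floor in fibroblast columns 2 to 5 and at 11.09 to 13.21 in day 14 columns 2 to 5, with the misread columns the other way round. It gave -3.59 ± 1.42 (adjusted p = 0.0505) with these in and -6.22 (adjusted p = 1.06e-07) without. RT1-Bb, a beta chain, gave no call (-1.65 ± 2.08, adjusted p = 0.544), but -4.73 (adjusted p = 1.47e-07) in a fit of only the 10 columns of both groups and -3.19 (adjusted p = 0.0176) with the mean of all its probes.

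Of 6 lymphocyte markers 3 were lower and 0 higher, among them Cd3g, a chain of the T cell receptor complex (-5.01 ± 0.25). S100a8, a calcium-binding protein of neutrophils, lay at the floor in every fibroblast column and was at least 20.8-fold lower. Its partner S100a9 was lower by -2.26 ± 0.85 (adjusted p = 0.0407), a call lost without any 1 of day 14 columns 3 to 5, fibroblast columns 1, 2, 4 and 5 or unmanipulated column 3 (-2.26 to -1.69). Lcn2, a siderophore-binding protein that other cells also make, was higher by 1.39 ± 0.52 (adjusted p = 0.0406). That call was lost without any 1 of columns 2 to 5 of day 14 or of culture (1.17 to 1.39). Kit, the receptor of mast cells, gave 0.96 ± 0.48 (adjusted p = 0.112), and was called without day 14 column 4 (1.36) or without fibroblast column 5 (1.26). Of 5 nerve and Schwann cell genes 2 were lower and 2 higher. Ncam1, a neural adhesion molecule, was among the higher (1.72 ± 0.51, adjusted p = 0.0129), although fibroblast column 5 lay at the floor. Sox10, a factor of Schwann cells, gave 0.92 ± 0.44 (adjusted p = 0.0973), and was called with columns scaled to their median (1.20) or without day 14 column 4 (1.32). Without day 14 column 1 the list had 4 genes tested, 1 higher and 2 lower, and its median went from 0.79 to -0.10.

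**Figure D3:**
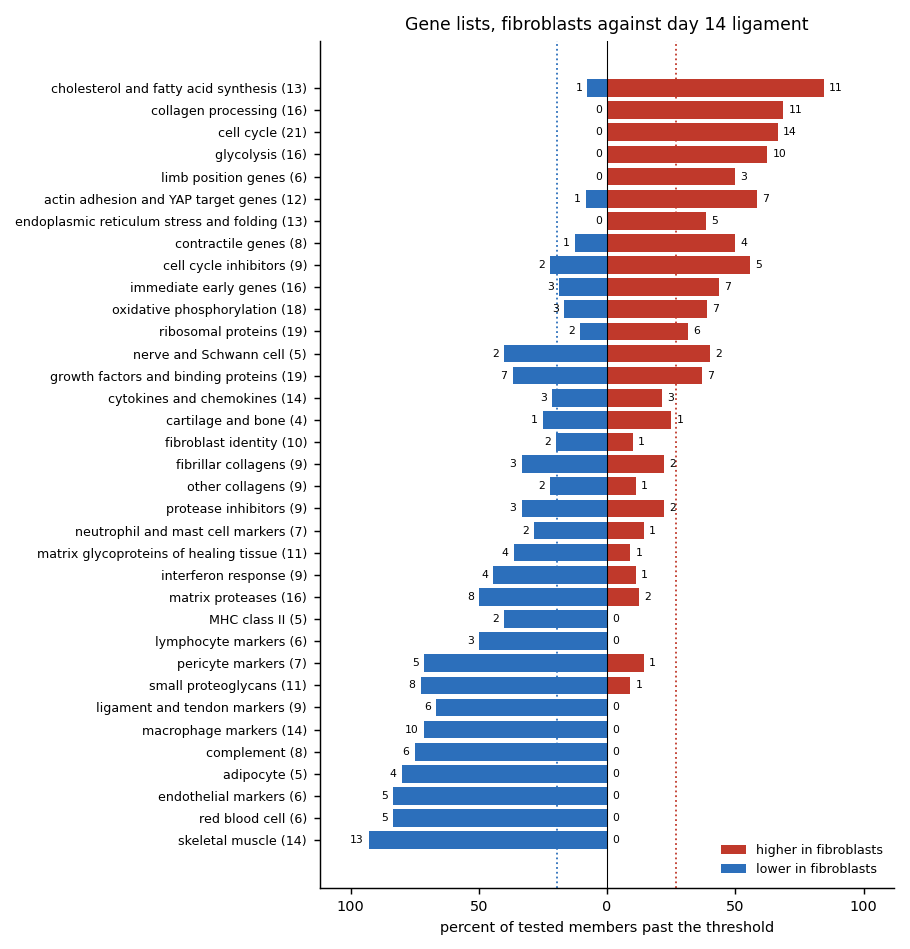
Percent of tested members of each of the 35 gene lists that were higher (right, red) or lower (left, blue) in fibroblasts at an adjusted p under 0.05, with counts at the bar ends and the number tested in parentheses. Dotted lines mark the shares over all genes, 27.0% and 19.7%. Skeletal muscle is at the lower end, with 13 of 14 lower, and cholesterol and fatty acid synthesis at the upper end, with 11 of 13 higher.

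Genes that mark ligament itself were also lower in culture. Of 9 ligament and tendon markers tested, 6 were lower and 0 higher (median -5.14). With both columns left out, 7 were lower and 1 higher. Tnmd, the membrane glycoprotein tenomodulin, lay at the floor in all 5 fibroblast columns and read 14.20, 15.37, 14.65, 15.00 and 14.86 on day 14. It was at least 577-fold lower (-9.17 ± 0.25, adjusted p = 3.41e-12). Unmanipulated ligament read 12.22 to 13.28, so healing ligament and culture lay on opposite sides of it, with differences of 1.98 and -7.20. Thbs4, a thrombospondin of tendon matrix, lay between 10.67 and 11.04 in fibroblasts, and its 5 day 14 columns were saturated, so that it was at least 35.3-fold lower. Comp, cartilage oligomeric matrix protein, lay at the floor in 4 fibroblast columns and at 6.27 in the other, against 10.39 to 14.12 on day 14 (-7.01 ± 0.56). No column of these 3 genes overlapped between culture and healing ligament. Tnmd was also among the largest falls, whose rule required a lack of overlap.

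Small leucine-rich proteoglycans, which bind collagen fibrils and set their spacing, were mostly lower. Of 11 tested, from a list that also held a large proteoglycan, 8 were lower and 1 higher (median -4.66). The counts were the same with both columns left out. Lum (lumican) read 6.39, 6.07, 5.94, 6.12 and 6.18 in fibroblasts, 13.04, 13.66, 12.62, 13.10 and 13.17 on day 14 and 11.11 to 11.43 in unmanipulated ligament. Culture was lowest and healing ligament highest without overlap, with a 126-fold difference from day 14 (-6.98 ± 0.21, adjusted p = 9.2e-12). Fmod (fibromodulin) read 10.21 to 10.66 in fibroblast columns 2 to 5 and lay at the floor in column 1, where it is misread, against 14.63 to 15.94 on day 14 (-5.88 ± 0.76, and -5.12 with both columns left out). Dcn (decorin) differed by -6.81 ± 2.04 (adjusted p = 0.0137). Bgn (biglycan), in contrast, was saturated in all 5 fibroblast columns and lay between 15.79 and 15.99 on day 14. Its difference of 0.09 (95% interval -0.33 to 0.51) is limited by the scanner, and it became -1.33 with columns scaled to their median. Prelp was the member that was higher in culture, at 8.56 to 8.74 against 5.64 to 7.10 (2.38 ± 0.32, adjusted p = 2.92e-05).

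Of 9 fibrillar collagens tested, 2 were higher and 3 lower (median -0.42), beside 27.0% and 19.7% over all genes, and 1 was higher without day 14 column 1. Col5a1, a chain of the type V collagen that nucleates fibrils, read 14.10, 13.75, 13.68, 13.52 and 13.75 in fibroblasts, 11.29, 12.25, 11.22, 11.83 and 11.64 on day 14 and 10.26 to 10.59 in unmanipulated ligament. The order was culture, healing ligament, unmanipulated ligament, with no overlap, and culture exceeded day 14 4.33-fold (2.12 ± 0.22, adjusted p = 3.29e-06). Col8a1, a short-chain collagen, had the same order, at 12.06 to 12.37, 10.05 to 10.95 and 8.64 to 9.40 (1.84 ± 0.23 for culture against day 14). Col11a2, a chain of type XI collagen, went the other way, at 6.22 to 6.64 in fibroblasts and 8.62 to 10.31 on day 14 (-3.19 ± 0.35). Col18a1, a collagen of basement membranes, was lower by -2.38 ± 0.22. Col12a1, which coats fibrils, was lower by -1.54 ± 0.57 (adjusted p = 0.039), a call lost without any 1 of day 14 columns 3 to 5 or of the 5 fibroblast columns (-1.61 to -1.17). Col6a1, of beaded filaments, gave -1.18 ± 0.56 (adjusted p = 0.0947). Col4a1, of basement membranes, gave -0.48 ± 1.10 (adjusted p = 0.75), and 0.61 (adjusted p = 0.0319) with both columns left out. The major chains gave no call as reported. Col1a1 read 15.45 to 15.92 in fibroblast columns 2 to 5, 11.10 in column 1 and 15.70 to 15.99 on day 14 (-1.12, 95% interval -2.65 to 0.42), and 4 columns of each group were saturated. Without both columns its difference was -0.24, and a further probe of the gene gave 1.78. With columns scaled to their median it was called lower (-2.15, adjusted p = 0.0166). Col3a1 was saturated in 4 fibroblast columns and all day 14 columns (-0.09, interval -0.44 to 0.27, and -1.62 with columns scaled to their median). Col1a2 differed by 0.69 ± 1.51 with both columns in, by 1.25 (adjusted p = 0.007) with both left out and by -0.43 without day 14 column 1.

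Of 11 glycoproteins of healing matrix tested, 4 were lower and 1 higher (median -0.24, and -0.07 without day 14 column 1). Cthrc1, a secreted protein with collagen repeats made in wounds, read 8.37, 8.14, 8.40 and 8.25 in fibroblast columns 2 to 5 and lay at the floor in column 1, where it is misread. On day 14 it read 13.84, 14.55, 13.90, 14.16 and 14.33, and in unmanipulated ligament 9.14 to 10.01. Healing ligament was far above both other groups, and culture was the lowest (-6.40 ± 0.45 against day 14, adjusted p = 5.03e-08, and -5.95 with both columns left out). Postn (periostin), which binds collagen and integrins, was arranged alike, at 6.29 to 7.36 in fibroblasts, 11.33 to 14.04 on day 14 and 9.28 to 11.13 in unmanipulated ligament (-5.81 ± 0.49). Fn1 (fibronectin) was saturated in 5 fibroblast and 4 day 14 columns (-0.24, interval -0.60 to 0.12, and -1.58 with columns scaled to their median), so its closeness is that of the scanner's limit. Fbln2, a fibulin, was the member that was higher (2.62 ± 0.77, adjusted p = 0.0122). Spp1 (osteopontin), a secreted phosphoprotein, read 14.27 to 14.57 in fibroblast columns 2 to 5 and 10.14 to 12.00 in day 14 columns 2 to 5, and column 1 of each group is misread. It gave 2.89 ± 1.39 (adjusted p = 0.102) with these in and 3.23 (adjusted p = 1.24e-05) without. Sparc (osteonectin), which binds collagen, gave no call (3.14 ± 2.04, adjusted p = 0.224), and its day 14 columns ran from the floor to 14.71.

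Enzymes and chaperones that process collagen were higher in culture as a group. Of 16 tested, 11 were higher and 0 lower (median 1.39), and with both columns left out 14 were higher and 1 lower. Loxl3, a lysyl oxidase that crosslinks collagen, read 11.30, 11.30, 11.34, 11.36 and 11.04 in fibroblasts, and on day 14 it lay at the floor in 2 columns and reached 7.74. It was higher by 4.74 ± 0.40 (adjusted p = 3.56e-07), a size that the floor bounds, and unmanipulated ligament lay at or under 7.24. P4ha1, a subunit of prolyl hydroxylase, read 11.74 to 12.14 against 9.36 to 9.99 (2.24 ± 0.24). Serpinh1 (Hsp47), the collagen chaperone of the endoplasmic reticulum, was higher by 1.25 ± 0.21, and Plod2, a lysyl hydroxylase, by 2.45 ± 0.64. None of these 4 overlapped between the groups. Lox itself gave no call (0.82 ± 1.65, adjusted p = 0.713), 1.03 and an adjusted p of 0.0057 with both columns left out, and -0.64 without day 14 column 1.

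Matrix proteases leaned the other way. Of 16 tested, 8 were lower in culture and 2 higher (median -0.86), and without day 14 column 1 the count of higher genes was 1. Ctss (cathepsin S), a lysosomal protease of antigen-presenting cells, read 5.87 to 6.24 in fibroblasts and 12.74 to 12.96 on day 14, a 111-fold gap without overlap (-6.79 ± 0.19, adjusted p = 4.65e-12). Mmp13, a collagenase, lay at the floor in fibroblast columns 2 to 5 and read 9.48 to 11.43 in day 14 columns 2 to 5. It is misread in column 1 of each group, at 8.35 and at the floor, and with these left out the difference changed from -3.14 ± 0.91 to -4.61. Mmp3 (stromelysin) was lower by -1.11 ± 0.40 (adjusted p = 0.0353), a call lost without any 1 of day 14 columns 2 and 4 or of fibroblast columns 2 to 5 (-1.15 to -0.75). Adamts5, an aggrecan-cleaving protease, was higher by 1.64 ± 0.58 (adjusted p = 0.031). That call was lost without any 1 of day 14 columns 1 to 4 or fibroblast columns 2 to 5 (1.44 to 1.59, and 1.59 without day 14 column 1). Mmp14, a membrane protease, gave no call (-1.05 ± 1.37, adjusted p = 0.557). Mmp2, a gelatinase, was lower by -1.26 ± 0.26 than on day 14, which itself was above unmanipulated ligament by 1.81. With columns scaled to their median this call was lost (-1.09, adjusted p = 0.0538). Of 9 protease inhibitors, 2 were higher and 3 lower (2 lower without day 14 column 1), beside 27.0% and 19.7% over all genes. A2m, the broad plasma inhibitor alpha-2-macroglobulin, was at -3.08 ± 0.71. Timp1, a tissue inhibitor of metalloproteinases, was higher (0.66 ± 0.26, adjusted p = 0.0474), a call that 11 of the 15 columns ended when left out singly (0.53 to 0.69). These were the 5 unmanipulated columns, day 14 columns 2 to 5 and fibroblast columns 4 and 5.

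**Figure D4:**
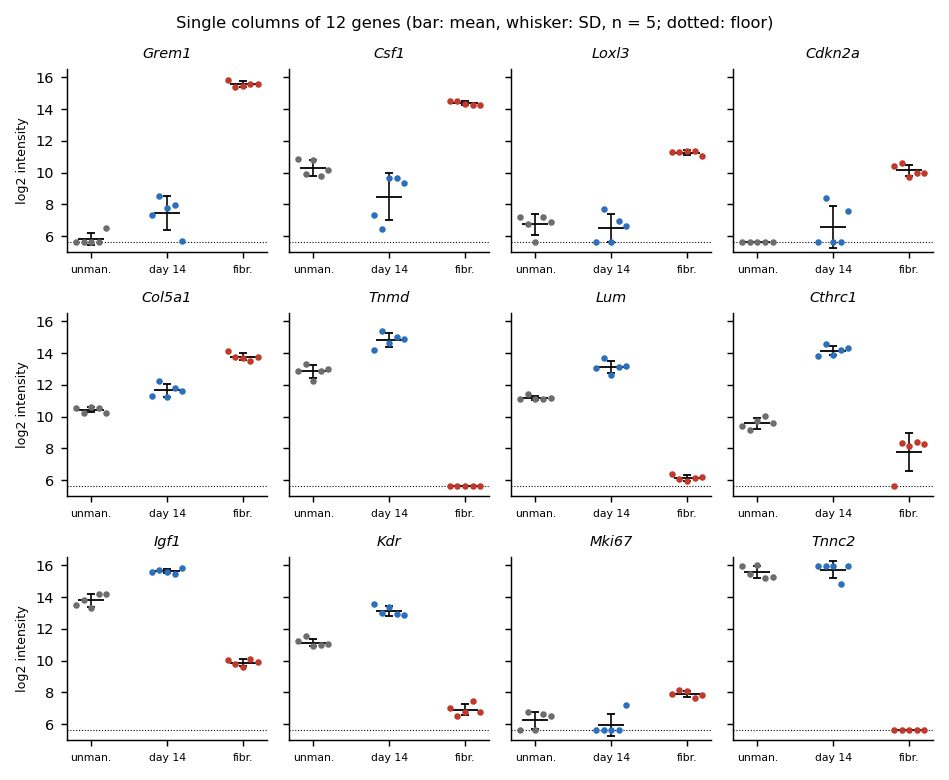
Levels of 12 genes (vertical axes, log2 intensity) in each of 5 columns of unmanipulated ligament (grey), day 14 severed ligament (blue) and cultured fibroblasts (red), with the mean and SD of each group and the floor dotted. Tnmd, Lum, Cthrc1, Igf1 and Kdr are highest on day 14 and lowest in culture, Tnnc2 is high in both tissues and at the floor in culture, and Grem1, Csf1, Loxl3, Cdkn2a, Col5a1 and Mki67 are highest in culture.

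Cell cycle genes were higher in culture. Of 21 tested, 14 were higher and 0 lower (median 2.05), with 15 higher when both columns were left out. Promoters of many genes of late cell cycle phases carry CCAAT boxes, bound by NF-Y, and a cell cycle genes homology region (CHR), bound by the DREAM complex in resting cells. The promoters of Mki67 and Cdk1 are shown because both genes differed and both hold these motifs. They run from 250 bases before to 50 after the gene's start (RefSeq, build GRCr8), Mki67 on the minus strand at chr1:199952544-199952843 and Cdk1 on the plus strand at chr20:19265043-19265342, 5' to 3', with capitals marking CCAAT or its complement ATTGG and the CHR letters TTTGAA or TTCAAA.
Mki67: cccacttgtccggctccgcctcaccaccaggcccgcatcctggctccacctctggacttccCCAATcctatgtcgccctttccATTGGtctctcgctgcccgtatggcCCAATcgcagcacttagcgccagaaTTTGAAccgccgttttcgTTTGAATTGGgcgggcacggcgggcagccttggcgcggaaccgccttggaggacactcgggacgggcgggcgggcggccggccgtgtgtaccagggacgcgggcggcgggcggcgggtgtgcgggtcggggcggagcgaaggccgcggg
Cdk1: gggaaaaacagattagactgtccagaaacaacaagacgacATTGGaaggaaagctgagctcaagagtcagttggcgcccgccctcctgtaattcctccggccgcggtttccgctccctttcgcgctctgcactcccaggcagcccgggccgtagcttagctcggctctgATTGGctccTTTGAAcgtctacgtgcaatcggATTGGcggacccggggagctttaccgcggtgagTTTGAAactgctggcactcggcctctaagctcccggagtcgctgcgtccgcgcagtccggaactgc
The Mki67 window held 4 CCAAT and 2 CHR matches, with a CHR and a CCAAT match sharing bases, and the Cdk1 window held 3 and 2. Over 33469 promoters, 37.5% held CCAAT, 18.3% held the CHR letters and 7.4% held both, on either strand. Of 17 tested cell cycle genes with a promoter in the table, 13 held CCAAT, 8 the CHR letters and 7 both. A match describes letters in this window and is not a binding site.

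Mki67, the marker of cycling cells, read 7.87, 8.14, 8.09, 7.68 and 7.86 in fibroblasts, whereas 4 of 5 day 14 columns lay at the floor and the other read 7.20. It was higher without overlap (1.97 ± 0.34, adjusted p = 0.000265), and the floor bounds the size of the difference. Cdk1, the mitotic kinase, read 12.81 to 13.05 in fibroblast columns 2 to 5 and 8.82 to 10.63 in day 14 columns 2 to 5. Column 1 of each group is misread there, at 8.70 and at the floor, and the difference was 3.16 ± 0.98 with them (adjusted p = 0.0171) and 3.19 without. Mcm3, a subunit of the replicative helicase, read 8.92 to 10.09 against 5.64 to 6.78 (3.84 ± 0.49), and Ccnb1 (cyclin B1) was higher by 2.58 ± 0.47. Both separated the groups. Top2a, the topoisomerase of mitotic chromosomes, was higher by 1.81 ± 0.64 (adjusted p = 0.0319), a call lost without any 1 of columns 1 to 3 of day 14 or 2 to 4 of culture (1.46 to 1.84) and with both columns left out (1.43, adjusted p = 0.0861). Against unmanipulated ligament, Mki67 differed by 1.70 in culture and by -0.28 on day 14.

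Inhibitors of cyclin-dependent kinases were higher in culture for 5 of 9 tested and lower for 2 (median 0.92). Cdkn2a, which encodes p16 and p19ARF and accumulates in passaged rodent fibroblasts, read 10.43, 10.58, 9.74, 9.95 and 9.98. On day 14 it lay at the floor in 3 columns and read 8.39 and 7.59 in the others, and all 5 unmanipulated columns lay at the floor. Culture was above both tissues without overlap, by 3.55 ± 0.48 over day 14 (adjusted p = 3.21e-05), and the floor bounds the size of the difference. Cdkn2a passed the filter on dim probes only through its fibroblast columns. Its neighbour Cdkn2b (p15) read 8.19 to 8.70 against 5.64 to 6.98 (2.39 ± 0.32). Cdkn1c (p57) lay at the floor in every fibroblast column and at 13.16 to 13.69 in day 14 columns 2 to 5. It was at least 100-fold lower (-6.65 ± 0.87), with 7.87 in the misread day 14 column 1. Cdkn1a (p21) was higher by 0.91 ± 0.25 (adjusted p = 0.00786), with fibroblast values of 6.59 to 6.91, close to the floor. Cell cycle genes and Cdkn2a were both higher in the same columns.

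Actin, adhesion and YAP target genes, which respond to cell spreading, were higher for 7 of 12 tested and lower for 1 (median 1.52), and without day 14 column 1 for 6 (median 0.91). Vcl (vinculin), which links actin to focal adhesions, read 9.97, 10.11, 9.93, 10.06 and 9.98 in fibroblasts and 9.09, 6.81, 7.82, 6.96 and 7.62 on day 14 (2.35 ± 0.38, adjusted p = 0.000177). All fibroblast columns were above all tissue columns. Ccn2 (connective tissue growth factor) was saturated in all 5 fibroblast columns and was at least 3.52-fold higher. Flna (filamin A) was higher by 4.39 ± 0.72. Ccn1 (Cyr61) gave 1.76 ± 1.15 (adjusted p = 0.225), but 1.32 (adjusted p = 0.0149) with both columns left out and 3.15 (adjusted p = 0.00407) with the mean of all its probes. Ankrd1, a YAP target of muscle and injured tissue, was the member that was lower (-2.82 ± 0.42). Of 8 contractile genes 4 were higher, with Actg2, a smooth muscle actin, at 3.81 ± 1.12 and Myl9, a myosin light chain, at 1.20 ± 0.26. Tpm1, a tropomyosin that striated muscle also makes, was lower by -2.63 ± 0.47. Tagln (SM22) gave no call (3.64 ± 1.44, adjusted p = 0.0515), and 4.83 and an adjusted p of 1.1e-07 with both columns left out.

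Lipid and sugar metabolism genes were higher in culture. Of 13 genes of cholesterol and fatty acid synthesis, 11 were higher and 1 lower (median 2.04), and 10 and 0 of 12 with both columns left out. Sqle (squalene epoxidase) read 11.08, 11.14, 11.00, 11.01 and 11.07 in fibroblasts and from the floor to 8.92 on day 14 (3.62 ± 0.54, adjusted p = 8.4e-05), with 6.70 to 9.09 in unmanipulated ligament. Hmgcs1, of the same pathway, was higher by 0.96 ± 0.30. The probe of Srebf2, the regulator of this pathway, read the opposite: it lay at the floor in all fibroblast columns and between 8.80 and 10.76 on day 14 (at least 16.4-fold lower). It also lay at or next to the floor in unmanipulated ligament, so it is 1 of the members that passed the filter through a single group.

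Of 16 glycolysis genes, 10 were higher and 0 lower (median 1.80), and 12 of 15 with both columns left out. Slc2a1 (GLUT1), the glucose transporter, read 11.74, 12.10, 11.82, 12.07 and 12.36 in fibroblasts and 9.96, 8.77, 8.98, 8.38 and 8.83 on day 14 (3.03 ± 0.32, adjusted p = 2.74e-06). Eno1 (enolase) read 15.21 to 15.98 against 11.33 to 12.08 (3.74 ± 0.28, adjusted p = 8.75e-08). In both, culture lay above both tissues with no overlap. Pgk1 was higher by 2.30 ± 0.26, Gapdh by 1.69 ± 0.39 and Ldha by 2.96 ± 0.80, and each encodes an enzyme of the lower pathway. Genes of folding and stress in the endoplasmic reticulum were higher for 5 of 13 and lower for 0, beside 27.0% and 19.7% over all genes. Their median was 1.01, and 0.60 without day 14 column 1. Hsp90b1, a chaperone, was at 1.38 ± 0.19 and Asns, asparagine synthetase, at 3.94 ± 0.40. Ddit3 (CHOP), a stress factor, gave 1.76 ± 1.15 (adjusted p = 0.224), and 1.74 (adjusted p = 4.9e-05) with both columns left out. Atf4, which acts upstream of Asns and Ddit3, gave -0.28 ± 1.22 (adjusted p = 0.868), and 1.18 (adjusted p = 0.00339) with both left out. Hspa5 (BiP) gave no call (-0.59 ± 2.05, adjusted p = 0.837).

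Immediate early genes were divided, with 7 of 16 higher and 3 lower (median 0.95), and 10 and 4 with both columns left out. Fosl1, a subunit of AP-1, read 9.73 to 10.38 in fibroblasts, whereas 3 of 5 day 14 columns lay at the floor and the highest read 7.26 (4.10 ± 0.36, adjusted p = 5.22e-07). Myc was higher by 2.53 ± 0.41 than on day 14 and differed from unmanipulated ligament by 0.05. Atf3, a stress-induced factor, was lower by -3.10 ± 0.27. Jun read 9.61 to 10.11 in fibroblasts and 11.89 to 12.66 in day 14 columns 2 to 5, with 6.40 in day 14 column 1. It gave -1.24 ± 0.91 (adjusted p = 0.284) with this column and -2.42 (adjusted p = 2.07e-06) without it. Fos differed by -0.10 ± 0.72 and Egr1 by 0.09 ± 0.82, and neither was called, although Egr1 gave 1.09 (adjusted p = 0.0187) with both columns left out.

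Growth factors and their binding proteins changed both ways, with 7 of 19 higher and 7 lower (median 0.66), and 7 and 4 with columns scaled to their median. Igf1, insulin-like growth factor 1, read 10.02, 9.79, 9.60, 10.09 and 9.90 in fibroblasts, 15.60, 15.70, 15.59, 15.46 and 15.81 on day 14 and 13.31 to 14.21 in unmanipulated ligament. The 3 groups did not overlap, and culture was 53.9-fold below day 14 (-5.75 ± 0.22, adjusted p = 7.63e-11). Igfbp3, which binds it, was lower by -1.67 ± 0.33 (a call lost with columns scaled to their median, -1.11, adjusted p = 0.0789), and Tgfb1 was higher by 1.65 ± 0.51. Igfbp2 read 5.64 to 6.22 in fibroblast columns 2 to 5 and 15.46 in column 1, and 15.53 to 15.98 in 4 day 14 columns with 5.96 in column 4. It was lower by -6.01 ± 2.05 (adjusted p = 0.0266), a call lost without any 1 of fibroblast columns 2 to 5 (-5.61 to -5.48). Inhba, a subunit of activin, gave 2.09 ± 0.98 (adjusted p = 0.0952), and 2.61 (adjusted p = 0.00434) with both columns left out.

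Of 14 cytokines and chemokines 3 were higher and 3 lower, beside 27.0% and 19.7% over all genes. Without day 14 column 1 the counts were 3 and 5. Cxcl1, an attractant of neutrophils, read 12.20, 12.28, 12.31 and 11.82 in fibroblast columns 2 to 5 and lay at the floor in the misread column 1 and in all 5 day 14 columns (at least 36.9-fold higher, 5.21 ± 1.00, and 6.51 with both columns left out). Il1b, interleukin 1 beta, was the reverse, at the floor in all fibroblast columns and between 9.33 and 10.75 on day 14 (at least 23.2-fold lower, -4.54 ± 0.27). The chemokine and the cytokine thus lay in different groups of columns. Cxcl12, a chemokine of stromal cells, was lower by -1.21 ± 0.45 (adjusted p = 0.0379), a call lost without any 1 of day 14 columns 2 to 4 or of fibroblast columns 2 to 5 (-1.28 to -0.96). Ccl2, an attractant of monocytes, gave no call (2.75 ± 2.32, adjusted p = 0.351), and its fibroblast columns ran from the floor to 15.86.

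Identity genes of fibroblasts showed no common direction, with 1 of 10 higher and 2 lower (median -0.22, and -0.45 without day 14 column 1), and 3 and 2 with both columns left out. Dpt (dermatopontin), a matrix protein of resident fibroblasts, lay at the floor in culture and was at least 37.0-fold lower (-5.21 ± 0.42), and Twist1, a mesenchymal transcription factor, was higher by 2.43 ± 0.43. Vim (vimentin), which lies in misread windows, gave 5.25 ± 2.17 with an adjusted p of 0.0605, and 6.57 ± 1.79 with an adjusted p of 0.0069 without both columns. The SE stayed wide without them, so the size of the Vim difference is uncertain. Pdgfrb, a receptor of platelet-derived growth factor, read 11.96 to 12.47 in fibroblast columns 2 to 5 and 8.87 to 10.56 on day 14, with 5.64 in the misread fibroblast column 1. It gave 1.12 ± 1.03 (adjusted p = 0.395) with that column and 2.20 (adjusted p = 3e-04) with both columns left out. Thy1, a surface glycoprotein of fibroblasts, gave no call (0.20 ± 0.54, adjusted p = 0.788). Of 6 genes that record limb position tested, 3 were higher and 0 lower, and without day 14 column 1 the counts were 3 and 1. Pitx1, the hindlimb homeodomain factor, read 10.99, 10.70, 10.90, 11.16 and 10.74 in fibroblasts, 8.94, 9.74, 9.18, 8.11 and 9.04 on day 14 and 9.39 to 10.68 in unmanipulated ligament. Culture was above day 14 without overlap (1.90 ± 0.31, adjusted p = 0.000195), and Hoxc9 was higher by 2.35 ± 0.49. Among 4 cartilage and bone genes, Sox9, a chondrogenic factor, was higher by 1.87 ± 0.46 and Prg4 (lubricin), made at joint surfaces, was lower by -4.15 ± 0.32.

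Some interferon response genes and most complement genes were lower in culture. Of 9 interferon response genes 4 were lower and 1 higher (median -1.25). Rsad2 (viperin), an antiviral enzyme, lay at the floor or within 0.01 of it in fibroblasts and read 13.49, 13.28, 12.90, 13.49 and 11.74 on day 14 and 12.59 to 13.69 in unmanipulated ligament. The tissues overlapped with each other and lay far above culture (-7.33 ± 0.33, adjusted p = 5.59e-10). Isg15, a ubiquitin-like protein, was lower by -4.64 ± 0.50. The member that was higher was Ifitm3, an antiviral membrane protein (0.58 ± 0.21, adjusted p = 0.0334), without overlap. Its call was lost without any 1 of day 14 columns 2 and 3 or fibroblast columns 1, 2 and 4 (0.46 to 0.59). Of 8 complement genes 6 were lower and 0 higher (median -2.67), with the regulator Cfi at -4.56 ± 0.40. C1s, a protease of the classical pathway, was lower by -2.89 ± 1.12 (adjusted p = 0.0457), a call that 14 of the 15 columns ended when left out singly (-3.11 to -2.10), day 14 column 1 being the exception. With both columns left out it gave -3.28 (adjusted p = 1.86e-05). C3 was close (-0.30, interval -0.90 to 0.29), but it was called lower without day 14 column 1 (-0.56, adjusted p = 0.043) and with both columns left out (-0.57, adjusted p = 0.0485).

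Housekeeping lists were mixed. Of 19 ribosomal protein genes 6 were higher, 2 lower and 7 close (median 0.30, and 0.01 without day 14 column 1), where close means that the 95% interval of the difference lay within -1 to 1. Over all genes 1198 of 15508 (7.73%) were close. Rps6 and Rpl13a were saturated in all columns of both groups, which bounds what their closeness can show, and each differed by -1.60 with columns scaled to their median. Rps14 was lower by -0.94 ± 0.18, and Rplp0 was higher by 3.95 ± 0.99. Rps3 gave 0.30 ± 1.27 (adjusted p = 0.864), and 1.01 (adjusted p = 0.00526) with both columns left out. Of 18 genes of oxidative phosphorylation 7 were higher and 3 lower, beside 27.0% and 19.7% over all genes. Cox6c, a subunit of cytochrome oxidase, was at -2.30 ± 0.20 and Cycs (cytochrome c) at -1.87 ± 0.29. The ATP synthase subunits Atp5f1a and Atp5f1b were higher by 3.79 ± 1.30 (adjusted p = 0.0272) and 3.61 ± 1.28 (adjusted p = 0.0316). Without day 14 column 1 they gave 3.65 (adjusted p = 0.0502) and 3.22 (adjusted p = 0.0682). Their calls were also lost without any 1 of fibroblast columns 2 to 5, of day 14 columns 3 to 5 for Atp5f1a (3.43 to 3.69) and of day 14 column 2 for Atp5f1b (3.21 to 3.33). Without day 14 column 1 the counts were 4 and 4, and the median went from 0.30 to -0.24.

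Features shared by culture and healing ligament were read from the close genes that lay farthest from unmanipulated ligament on the same side. Of the 1198 close genes, 667 were named. In 148 (12.4%) both means lay under an intensity of 100, and in 38 both lay within 0.5 of the scanner's limit. Genes were selected by these values, so what follows is a description, and both differences share the unmanipulated columns. Srpx2, a secreted protein with sushi repeats, read 10.96, 10.71, 11.03, 10.91 and 10.75 in fibroblasts, 9.53, 11.42, 10.83, 10.65 and 11.87 on day 14 and 8.60 to 9.44 in unmanipulated ligament. Culture and healing ligament overlapped (0.01, interval -0.74 to 0.77), and both lay above unmanipulated ligament, by 1.96 and 1.95. Tpbg, the trophoblast glycoprotein, read 9.69 to 10.15 and 9.11 to 10.71 against 7.44 to 8.24. Fkbp10, a prolyl isomerase of the endoplasmic reticulum that folds procollagen, read 7.94 to 8.72 and 7.73 to 8.94 against 5.64 to 7.42. Adamts7, a protease that cleaves Comp, lay 1.91 and 1.55 above unmanipulated ligament in culture and on day 14, and Tll2, a tolloid-like protease, 1.53 and 1.40. Erg28, of sterol synthesis, lay 1.39 and 1.60 above it, Noxa1, an activator of NADPH oxidase, 1.60 and 1.33, and Scd, the stearoyl-CoA desaturase, 1.58 and 1.41. None of these 8 genes stayed close with columns scaled to their median, where their differences were 0.61 for Srpx2, 0.45 for Tpbg, 0.44 for Fkbp10, 0.96 for Adamts7, 0.48 for Tll2, 0.34 for Erg28, 0.44 for Noxa1 and 0.63 for Scd, and none was called. Adamts7 (0.42), Tll2 (0.26) and Scd (0.25) were also not close without day 14 column 1. The distances of these 8 genes above unmanipulated ligament are given for quantile normalisation only. With columns scaled to their median, day 14 against unmanipulated ligament gave 274 higher and 2509 lower genes, against 1331 and 1274 as reported.

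The close genes farthest below unmanipulated ligament were mostly dim in both groups. Slc13a5, a citrate transporter, had means of 5.77 in culture and 5.77 on day 14, next to the floor, and 8.26 in unmanipulated ligament. Tesc, Dennd2d, Ifit1bl, Mup4l4, Ptgis and Cybb had means between 5.65 and 6.20 in both groups and between 7.83 and 8.39 in unmanipulated ligament. For these 7 genes the likeness is that of values at or near the floor. Or2t48, named as an olfactory receptor, was measured above the floor in all 3 groups, at means of 7.81, 7.96 and 10.14. It was not close with both columns left out (-0.32), nor was Dennd2d with columns scaled to their median (0.10), without day 14 column 1 (-0.17) or without both (-0.56).

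**Figure D5:**
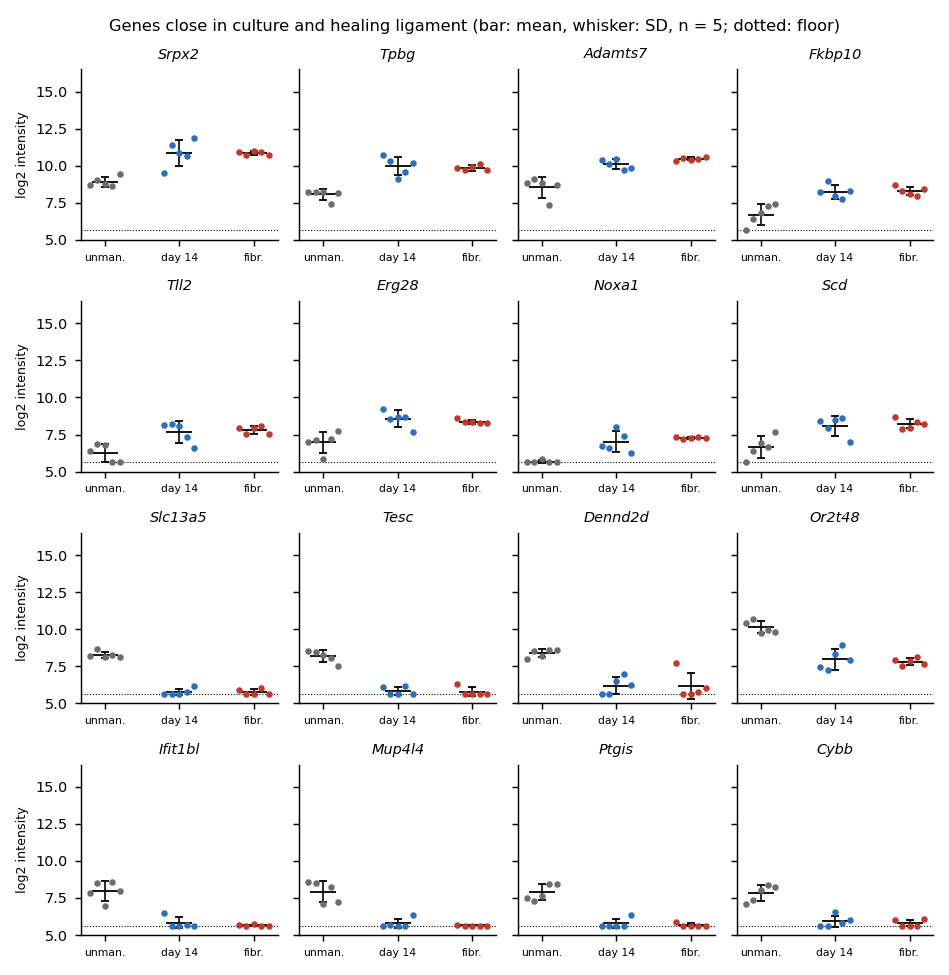
Levels of the 16 close genes farthest above (upper 8 panels) or below (lower 8 panels) unmanipulated ligament (vertical axes, log2 intensity), in 5 columns per group with the mean and SD and the floor dotted. In the upper panels culture (red) and day 14 (blue) overlap above most grey points, and in the lower panels they lie at or near the floor except for Or2t48.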

How the data were processed

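Total RNA was measured on Agilent rat whole-genome arrays. The deposited table gives intensity per scanner channel, which the authors took, per the file headers, as the median foreground minus background, with a flag per spot. The deposited value table, a log2 scale inferred from its values, served as an alternative. Background correction and normalization beyond that are not given in the sources used here. The table held 44289 spots, 2917 of them controls that were left out, and 41012 probes, of which 18552 (45.24%) were named through a RefSeq gene table. Columns without a sample numbered 0. The 15 Cy5 columns were quantile-normalised together, raised to a floor of 50 and taken to log2, spots of a probe were averaged, probes over 100 in at least 5 columns were kept, and each gene was read from its brightest kept probe. limma 3.58.1 in R 4.3.3 (lmFit, eBayes) fitted 3 group means, after a test on simulated data. Genes were named by a rule: the 12 largest rises and 12 largest falls without overlapping columns, the first 4 members of each list with its largest rise and fall, and the 8 close genes farthest above and below unmanipulated ligament. Of the first members, 30 of 140 were not tested, and of the 180 genes left, 175 are named and 5 are not reported here. The members and lists were chosen with earlier results of these data known. Alternatives varied normalization, floor, filter, probe choice, spread model and columns. The number of arrays and their dim signal limit the precision.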

Additional observations from a re-analysis of the deposited data

Results flagged for a closer look

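Single columns stood far from the other 4 of their group in 34 of 138 groups of 5 examined, by the gap to the nearest column over the range of the group, and chance alone gives about 1 in 20. Of these, 13 came from the columns with misread windows. In fibroblast column 1 they were Hbb-b1 at 8.66, Fmod, Cthrc1, Cxcl1 and Lyz2 at 5.64, Col1a1 at 11.10, Mmp13 at 8.35 and Cdk1 at 8.70. In day 14 column 1 they were Hbb-b1 at 15.72, Npy at 15.98, Col1a1 at 15.70, Cdkn1c at 7.87 and Lyz2 at 9.08. With both columns left out, Npy differed by -8.29, Cdkn1c by -7.77 and Lyz2 by -6.94 between culture and day 14, and the values of the other genes without them are given in the report.

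Several columns rose above a group that otherwise lay at or next to the floor. In fibroblasts these were Tnnc2 at 5.66 in column 4, Comp at 6.27 in column 3, Rgs5 at 6.31 in column 5 and Rsad2 at 5.65 in column 2. On day 14 they were Mki67 at 7.20 in column 5, Mcm3 at 6.78 in column 4 and Fosl1 at 7.26 in column 3. In unmanipulated ligament they were Grem1 at 6.50 and Cdkn2b at 6.80 in column 5 and Srebf2 at 5.73 in column 2.

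Near the scanner's limit, small gaps stood out because the range was small. They were Thbs4 at 15.98 in day 14 column 4 and at 15.97 in unmanipulated column 4, and Bgn at 15.99 in fibroblast column 4. Tnnc2 at 14.79 in day 14 column 4 was the exception, under the other 4 columns. The remaining values were Ptgr1 at 14.78 and Loxl3 at 11.04 in fibroblast column 5, Tpbg at 7.44 in unmanipulated column 4, and Ptgr1 at 9.31, Hbb-b1 at 15.09, Lum at 11.43 and Fmod at 15.25 in unmanipulated column 2.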

How the results depend on the processing

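Of the 175 genes named, 122 were called. The comparison was refitted under 31 other settings, and 101 of the 122 could be tested under all of them. Of the 122, 76 stayed past the threshold wherever they were tested, 46 missed it in at least 1 setting, and 0 turned sign. Of the 46, 40 missed it in a setting that used all 72 columns, for normalisation alone or for the fit as well, and 13 with a single column left out. Without day 14 column 1, 4 missed it, Adamts5, Top2a, Atp5f1a and Atp5f1b, and with both columns left out 1, Top2a. With median scaling 8 missed it: Mmp2, Igfbp3, Col12a1, Mmp3, Timp1, Cxcl12, C1s and Lcn2. Of 23 close genes, 0 stayed close under every setting. Counts of higher genes in culture against day 14 were 2766 with quantile normalisation over all 72 columns (38419 genes), 1646 with a dye term as well (38432 genes) and 1810 with a filter at 400 (7467 genes). Close genes, 1198 as reported, were 744 with median scaling, 687 with median scaling and misread windows left out, 3895 with 72 columns, 7104 with a floor of 200, 14095 with no filter, 706 with spots not found set to the floor and 690 with the deposited log2 values. A higher floor and the absence of a filter put more dim genes close by construction. With 72 columns the filter removed almost no genes, since 38419 and 38432 were tested there and 38432 with no filter. For settings other than the floor and the absence of a filter, the cause was not tested. For day 14 against unmanipulated ligament, higher genes numbered 274 with median scaling, 258 with misread windows left out too, 521 and 90 with 72 columns without and with a dye term, and 406 with the replicate number as a block. Lower genes numbered 2509, 4097, 409, 79 and 620 in the same order, 706 with a filter at 400, 2271 with misread windows left out and 2274 with both columns left out. For fibroblasts against unmanipulated ligament, higher genes numbered 1422 and 630 with 72 columns without and with a dye term, 1539 with a filter at 400 and 5387 with array weights, and lower genes 1057 with the dye term. The settings that leave out misread windows or both columns, and the one with median scaling besides, were chosen after seeing the data.

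Leaving out each column in turn gave 3084 to 4773 higher, 2706 to 3434 lower and 937 to 1392 close genes for culture against day 14. For day 14 against unmanipulated ligament it gave 836 (without unmanipulated column 2) to 2084 (without fibroblast column 1) lower genes. Col1a2 ranged from -0.43 to 2.35 and Lox from -0.64 to 2.46, each lowest without day 14 column 1. Col1a1 turned to 0.33 with the mean of all its probes, and Rps3 to -1.41. These and the 8 other genes that turned sign had no call as reported. Col4a1 gave 0.14 with that mean, 0.63 with array weights, 0.48 with spots not found at the floor, 0.48 with the deposited log2 values, 0.61 with misread windows left out, 0.61 with both columns left out and 1.01 with median scaling besides. Mmp14 gave 0.051 and 0.11, and Hspa5 0.22 and 0.38, with array weights and with median scaling and misread windows left out. Hspa5 also gave 0.12 with misread windows and 0.12 with both columns left out. Atf4 gave 0.10 with median scaling, 0.12 with a floor of 200, 1.21 with array weights, 1.18 with misread windows left out, 1.18 with both columns left out and 1.50 with median scaling besides. Fos gave 0.18 with median scaling, 0.092 with spots not found at the floor, 0.30 with the deposited values, 0.045 with misread windows left out and 0.32 with median scaling besides. Egr1 gave -0.0064 and -0.065, and Thy1 -0.48 and -0.60, with spots not found at the floor and with the deposited values. Thy1 and Kit gave -0.39 and -0.0068 with a floor of 200. With single columns left out, Col4a1 ranged from -0.87 to 0.94, Mmp14 from -1.76 to 0.61, Hspa5 from -1.42 to 1.07, Atf4 from -0.69 to 1.32, Fos from -0.45 to 0.50, Egr1 from -0.18 to 1.10, Thy1 from -0.19 to 0.59 and Rps3 from -0.48 to 1.79. No paired analysis was possible for culture against day 14 because the numbers of the fibroblast columns are given by no label and tie them to no day 14 animal. Severed and unmanipulated columns of the same number correlated at -0.04 to 0.14 in their deviations, and 3 of 5 matched their own number best. With 5 pairs, this cannot settle whether columns of a number share more than the number. The 406 and 620 calls with the block are of 12308 genes. Dim signal limits genes near the floor, and saturation limits those near 15.99.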

Other observations

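The deposited log2 values name the passage of each fibroblast sample, with 1 sample per passage and so no test. Relative to the median of its own sample, Cdkn2a stood at 4.50, 4.79, 3.19, 3.98 and 3.88 in passages 3, 4, 5, 6 and 7. Mki67 stood at 1.80, 2.30, 1.57, 1.66 and 1.74, and Ccnb1 at 4.99, 4.88, 4.07, 4.92 and 4.52. Col5a1 lay between 7.05 and 8.06 and Csf1 between 7.58 and 8.65. All 5 of these genes were lowest at passage 5, and none climbed or fell steadily from passage 3 to 7. Each median was taken over the spots with a value. At passage 5, 26.03% of spots had none, against 14.66% to 24.67% at the other passages. Whether a shift of the whole sample gave the common low was not tested. Which of these samples is the column with misread windows was not determined.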
